A study of Mus musculus with 2 samples.

Results

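The mitochondrial genome of the mouse is a small circle of DNA, and its genes were examined here in fibro-adipogenic progenitors of skeletal muscle (FAPs), a mesenchymal population able to become adipocytes. Genes were taken as mitochondrial when their symbol in the deposited tables starts with mt-. This gave 36 of 44291 genes, namely 13 protein-coding genes, 2 rRNA genes and 21 tRNA genes. The annotation used for coordinates (GENCODE release M21, genome build GRCm38, the same assembly as mm10) lists 37 genes on this chromosome, and the remaining one, mt-Tk, was not analysed here.

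RNA-seq was run on primary wild-type FAPs given platelet-rich plasma (PRP) or vehicle alone (control), with 1 library in each group and 2 libraries in all. Both cultures were exposed to adipogenic induction medium, which held insulin (10 μg/ml), dexamethasone (0.25 μM) and IBMX (0.5 mM) beside 20% serum. The libraries are called PRP and control. PRP is the treatment that the labels give, but the study's text describes exosomes isolated from human PRP, so human material was given to mouse cells. For its animal work the study names C57BL/6 mice at 6 to 8 weeks of age, and how many animals gave the cells of each library is not given in the sources used here.

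The mitochondrial genome encodes core subunits of respiratory complexes I, III and IV and of the ATP synthase (complex V), together with the rRNAs and tRNAs that translate them. Both of its strands are copied into long precursor RNAs, and the tRNAs that lie between the other genes are cut out to release the mRNAs and rRNAs. All other subunits, and every protein that copies, processes or degrades this RNA, are encoded in the nucleus and imported. None of these mitochondrial genes has an intron.

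Values are given as FPKM, a unit that corrects the reads of a gene for its length and for the depth of the library, so levels of genes of different length can be set side by side. Assigned reads numbered 40120843 in PRP and 34139741 in control. A log2 fold change is the difference, PRP minus control, of log2(FPKM + 1). Genes whose mean FPKM reached 1 are called tested (13401 in all, with a median log2 fold change of 0.01). A ratio is PRP FPKM over control FPKM, with a 95% exact binomial interval from recovered read numbers. These intervals cover counting error only, and with 1 library per group they compare libraries and not treatments, so no p-value is given and no difference has a replicate check. FAP markers were present, with Pdgfra, Ly6a, Dcn, Col1a1 and Dpt at 7.54 to 119 FPKM in the PRP library and 8.36 to 219 in the control library. The myogenic markers that have a row reached at most 0.0315 FPKM, and the platelet markers at most 0.567 FPKM. The platelet rows are mouse genes, so they cannot settle whether RNA of human platelets was present.

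Several sequences are shown first, because they bear on how reads of neighbouring or copied genes can be told apart. The protein-coding genes mt-Atp8 and mt-Atp6, both encoding subunits of the ATP synthase, share 43 bases (capitals) at chrM:7927-7969 on the plus strand.
mt-Atp8/mt-Atp6: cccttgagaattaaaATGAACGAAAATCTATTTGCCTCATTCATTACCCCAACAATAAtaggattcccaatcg
The complex I genes mt-Nd4l and mt-Nd4 share 7 bases (capitals) at chrM:10167-10173, also on the plus strand.
mt-Nd4l/mt-Nd4: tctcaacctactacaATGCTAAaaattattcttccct
A second kind of overlap lies between chromosomes. The start of mt-Atp6 (chrM:7927-7987, plus strand) and the start of the pseudogene Gm10925 (chr1:24614591-24614651, minus strand) are the same in every base.
mt-Atp6: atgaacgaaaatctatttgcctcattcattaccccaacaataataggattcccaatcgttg
Gm10925: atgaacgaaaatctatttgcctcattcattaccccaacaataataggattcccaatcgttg
The start of the complex I gene mt-Nd3 (chrM:9459-9521, plus strand) differs from the pseudogene Gm28438 (chr1:24613057-24613119, minus strand) by 1 substitution, T3C, counted from 1 at the first base of the gene, with the differing base in capitals.
mt-Nd3: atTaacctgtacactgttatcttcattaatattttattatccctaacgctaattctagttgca
Gm28438: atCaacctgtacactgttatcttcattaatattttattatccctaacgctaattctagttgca

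Mitochondrial mRNAs and tRNAs were lower in the PRP library, while both rRNAs were higher. Of the 36 genes, 35 were tested, and 33 of them had the lower value in the PRP library, where 49.1% of all tested genes did. By 1.5-fold or more, 25 were lower, against 4.57% of all tested genes. By 2-fold or more, 8 were lower, against 0.828% of all tested genes. The interval of the ratio lay below 1 for 23 genes, above 1 for 2 and across 1 for 10, whereas it lay below 1 for 26.1% of all tested genes with recovered reads. Together the mitochondrial genes made up 2.06% of all FPKM in PRP and 3.70% in control, and 0.594% against 1.04% of the assigned reads. In bulk RNA, fewer mitochondrial transcripts per cell and a smaller share of cells rich in mitochondria cannot be told apart.

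**Figure D1:**
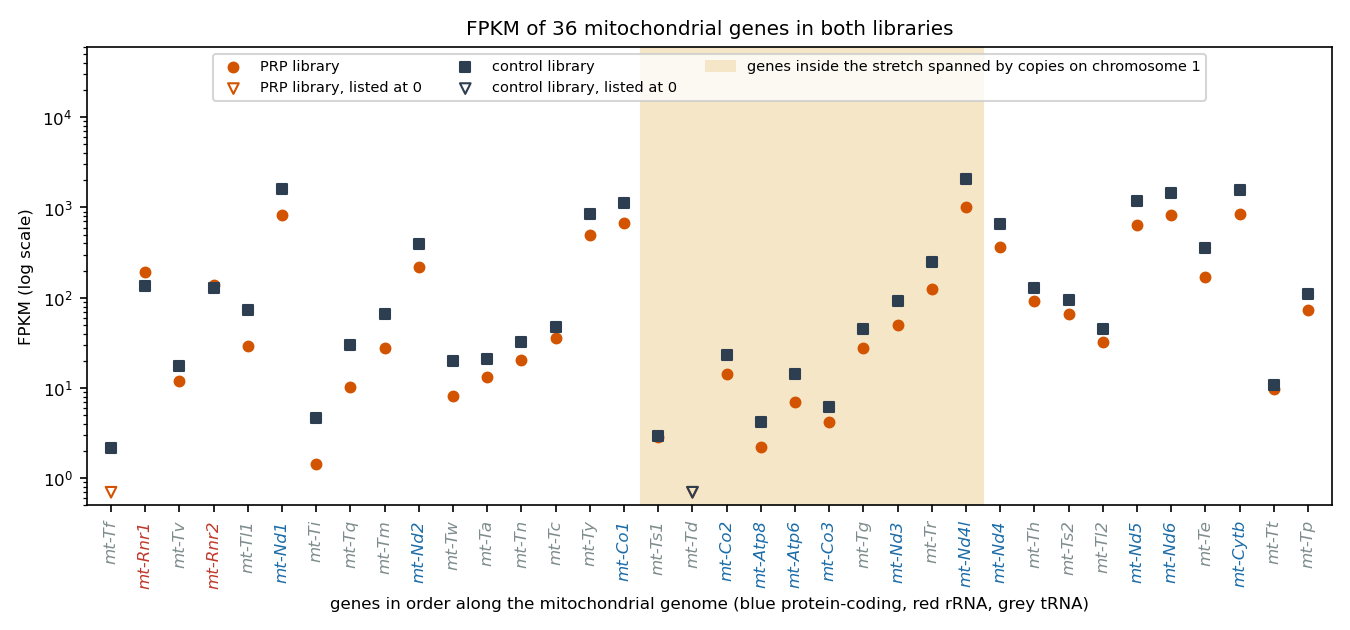
FPKM (log scale) of the 36 mitochondrial genes in order along the mitochondrial genome, with circles for the PRP library, squares for the control library and open triangles for genes listed at 0. The control square lies above the PRP circle for every mRNA, both rRNAs show the opposite order, and the shaded stretch holds several mRNAs with FPKM far below those of the other mRNAs.

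Complex I, which takes electrons from NADH, has 7 subunits encoded in the mitochondria, and all 7 were lower in the PRP library. mt-Nd1 (chrM:2751-3707) stood at 822 FPKM in PRP and 1584 in control, a ratio of 0.519 (0.509 to 0.529). mt-Nd2 (chrM:3914-4951) stood at 219 and 391 FPKM, a ratio of 0.559 (0.538 to 0.580). mt-Nd3 (chrM:9459-9806) stood at 50.4 and 92.7 FPKM, a ratio of 0.543 (0.474 to 0.622). The level of mt-Nd3 was the lowest of the complex I mRNAs in both libraries, although its ratio was close to those of mt-Nd1 and mt-Nd2. mt-Nd4l (chrM:9877-10173) had the highest level of all mitochondrial rows, with 1004 FPKM in PRP and 2050 in control. Its ratio was 0.490 (0.474 to 0.505), and it was the only mRNA whose log2 fold change passed 2-fold, at -1.03. The mt-Atp6 row had a lower ratio, 0.484, but a log2 fold change of -0.95, since the added 1 understates changes at low FPKM. mt-Nd4 (chrM:10167-11544), the neighbour of mt-Nd4l on the same mRNA, stood at 362 and 659 FPKM, a ratio of 0.550 (0.536 to 0.564). mt-Nd4l per length was 2.77 times as high as mt-Nd4 in the PRP library and 3.11 times in the control library. mt-Nd5 (chrM:11742-13565) stood at 647 and 1184 FPKM, a ratio of 0.547 (0.538 to 0.556).

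mt-Nd6 (chrM:13552-14070), the remaining complex I gene, is the only protein-coding gene annotated on the minus strand of the reference. It stood at 833 FPKM in PRP and 1429 in control, a ratio of 0.583 (0.567 to 0.599). Its log2 fold change of -0.78 lay inside the range of the 12 plus-strand mRNAs, from -1.03 to -0.48 with a median of -0.86. mt-Nd6 was 1.29 times as high as mt-Nd5 per length in the PRP library and 1.21 times in the control library. The 3' ends of these genes overlap on opposite strands, and whether the counting used the strand is not given in the sources used here, so reads of this overlap and any antisense RNA cannot be told apart from the mRNA.

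mt-Cytb (chrM:14145-15288), the only mitochondrially encoded subunit of complex III, which passes electrons from ubiquinol to cytochrome c, stood at 841 FPKM in PRP and 1550 in control. Its ratio was 0.543 (0.533 to 0.553). Complex IV, the cytochrome c oxidase that reduces oxygen, has 3 such subunits. mt-Co1 (chrM:5328-6872) stood at 666 and 1116 FPKM, a ratio of 0.597 (0.587 to 0.608). mt-Co2 (chrM:7013-7696) stood at only 14.4 and 23.1 FPKM, a ratio of 0.622 (0.515 to 0.750). mt-Co3 (chrM:8607-9390) stood at 4.16 and 6.20 FPKM, a ratio of 0.672 (0.478 to 0.940). The mt-Co2 and mt-Co3 rows were thus far below mt-Co1 in both libraries, and mt-Co3 was the 1 mRNA row that missed the 1.5-fold limit.

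Both ATP synthase genes had low rows, and mt-Atp8 had the lowest of the 13 mRNAs. mt-Atp8 (chrM:7766-7969) stood at 2.20 FPKM in PRP and 4.16 in control, from 18 and 29 reads. Its ratio of 0.528 had an interval of 0.203 to 1.30, the only one of the 13 mRNA intervals that spanned 1. mt-Atp6 (chrM:7927-8607) stood at 6.92 and 14.3 FPKM, a ratio of 0.484 (0.372 to 0.627). By complex, the summed reads of the PRP library over those of the control library, per assigned read, were 0.540 (0.535 to 0.545) for complex I and 0.543 (0.533 to 0.553) for complex III. They were 0.598 (0.587 to 0.608) for complex IV and 0.488 (0.379 to 0.625) for complex V. The complex V value rests on 207 and 361 reads. With the reads of near-identical copies on chromosome 1 added, it was 0.613 (0.602 to 0.624), above those of complexes I and III, which stayed at 0.540 and 0.543, and complex IV was at 0.600 (0.595 to 0.606).

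All 13 mRNA rows were lower in PRP, where 49.1% of all tested genes were, and their median ratio was 0.547. Along the genome the log2 fold change showed little order, since Spearman's rho with the gene start was -0.22 over the 13 genes. These genes share libraries and precursor RNAs, so the value is a description only. The highest mRNA row was 456 times the lowest in the PRP library and 492 times in the control library.

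A stretch of chromosome 1 carries 7 pseudogenes (chr1:24611535-24616197, minus strand) that run in the same order as the mitochondrial genes. From the first to the last matched base they span 4662 bases of the mitochondrial genome, chrM:6381-11042, with unannotated gaps between them, and 10 of the 36 genes lie wholly inside this span. The copies of mt-Co2, mt-Atp6, mt-Co3, mt-Nd4l and mt-Nd4 (Gm28661, Gm10925, Gm28437, Gm10222 and Gm28439) were identical to the mitochondrial gene over their whole annotated length. Gm28438 differs from mt-Nd3 by the substitution shown above, and Gm29216 was 98.8% identical to the end of mt-Co1. Of all windows of 100 bases, 99.5% in mt-Co2, 99.5% in mt-Atp6 and 99.9% in mt-Co3 also occur in an annotated nuclear transcript. The shares were 97.6% in mt-Nd3, 98.5% in mt-Nd4l, 60.8% in mt-Nd4, 30.8% in mt-Co1 and 3.19% in mt-Nd2. No such window occurred in mt-Nd1, mt-Nd5, mt-Nd6, mt-Cytb or the rRNAs, nor in mt-Atp8, which lies in the span but has no annotated copy there. Only annotated transcripts were searched. Outside the bases shared with mt-Atp6, mt-Atp8 lies in an unannotated gap between the copies of mt-Co2 and mt-Atp6. Whether that part of it also occurs on chromosome 1 was not examined.

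For 3 genes the row of the copy held far more reads than the mitochondrial row. Gm28661, the copy of mt-Co2, stood at 2370 FPKM in PRP and 3913 in control, a ratio of 0.606 (0.597 to 0.614). Gm10925, the copy of mt-Atp6, stood at 1535 and 2500 FPKM, a ratio of 0.614 (0.603 to 0.625). Gm28437, the copy of mt-Co3, stood at 572 and 1040 FPKM, a ratio of 0.550 (0.536 to 0.565). For these genes more than 99 of 100 reads of gene and copy lay on the copy. At the other end of the stretch the order was turned around, since Gm10222 and Gm28439 stood at 1.19 and 0.142 FPKM in the PRP library while nearly all reads lay on the mt-Nd4l and mt-Nd4 rows. Gm29216 stood at 538 and 788 FPKM, a ratio of 0.683 (0.659 to 0.709), and Gm28438 at 18.8 and 35.0 FPKM, a ratio of 0.537 (0.428 to 0.672). How reads that match both places were assigned is not given in the sources used here, so for identical stretches a row of a gene or of its copy alone cannot be read as the level of either.

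**Figure D2:**
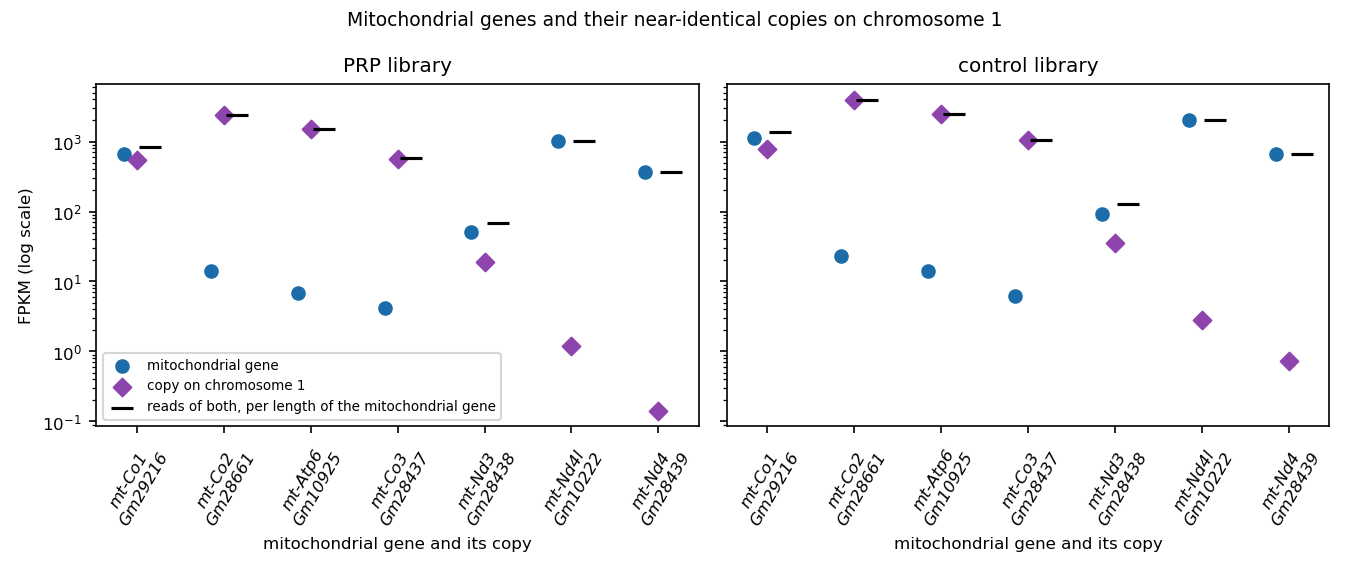
FPKM (log scale) of 7 mitochondrial genes (circles), of their copies on chromosome 1 (diamonds) and of the reads of both together per length of the mitochondrial gene (bars), with the PRP library at the left and the control library at the right. The copies of mt-Co2, mt-Atp6 and mt-Co3 lie far above the genes in both libraries, those of mt-Nd4l and mt-Nd4 far below.

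The 7 copies together held 135374 reads in PRP and 190336 in control, a ratio per assigned read of 0.605 (0.599 to 0.611). They made up 36.2% and 34.9% of the reads of mitochondrial genes and copies. With the reads of each copy added to its gene, a step chosen after the values were seen, mt-Co2 stood at 2374 FPKM in PRP and 3919 in control. mt-Atp6 then stood at 1535 and 2503 FPKM, a ratio of 0.613 (0.602 to 0.624), and mt-Co3 at 575 and 1045 FPKM, a ratio of 0.551 (0.536 to 0.566). mt-Co1 stood at 838 and 1367 FPKM, a ratio of 0.613 (0.603 to 0.623). All 13 mRNAs were still lower in PRP, and their median ratio was 0.549. Without mt-Atp8, the highest mRNA was then 34.4 times the lowest in the PRP library and 30.8 times in the control library.

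The make-up of mitochondrial mRNA within a library differed more with and without the copies than between the libraries. From the mitochondrial rows alone, complex I genes held 71.9% of the summed mRNA FPKM in PRP and 73.1% in control. Complex III held 15.4% and 15.3%, complex IV 12.5% and 11.3%, and complex V 0.167% and 0.183%. With the copies added, complex I held 39.1% and 41.7%, complex III 8.31% and 8.70%, complex IV 37.4% and 35.5%, and complex V 15.2% and 14.1%.

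The rRNA genes went the other way from the mRNAs. mt-Rnr1 (chrM:70-1024), the rRNA of the small mitochondrial ribosomal subunit, stood at 191 FPKM in PRP and 134 in control, a ratio of 1.42 (1.35 to 1.5). mt-Rnr2 (chrM:1094-2675), the rRNA of the large subunit, stood at 139 and 129 FPKM, a ratio of 1.08 (1.03 to 1.13). Both intervals lay above 1, as for 26.1% of all tested genes with recovered reads, and 50.9% of all tested genes were higher in the PRP library. mt-Rnr1 was 1.37 times mt-Rnr2 per length in the PRP library and 1.04 times in the control library. The summed FPKM of the mRNA rows was 16.6 times that of the rRNA rows in the PRP library and 38.3 times in the control library.

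The library kit was one for stranded mRNA. Values are given for 5 RNAs whose main form lacks a poly(A) tail. They were chosen after their values were seen, so that all 5 were higher in the PRP library is a description only. Rn18s-rs5, a cytosolic rRNA sequence, stood at 8090 FPKM in PRP and 3318 in control. Rn7s1 and Rn7s2, RNAs of the signal recognition particle, stood at 294 against 116 FPKM and 76.1 against 21.9 FPKM. Rn7sk, the RNA that holds back the elongation factor P-TEFb, stood at 9.34 against 1.95 FPKM, and Rpph1, the RNA of ribonuclease P, at 9.69 against 2.57 FPKM. Of 74 tested small nucleolar and Cajal body RNAs, 57 were higher in PRP and 17 lower (median log2 fold change 0.51), where 50.9% of all tested genes were higher. The part of this difference in the mitochondrial rRNA values was not tested.

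**Figure D3:**
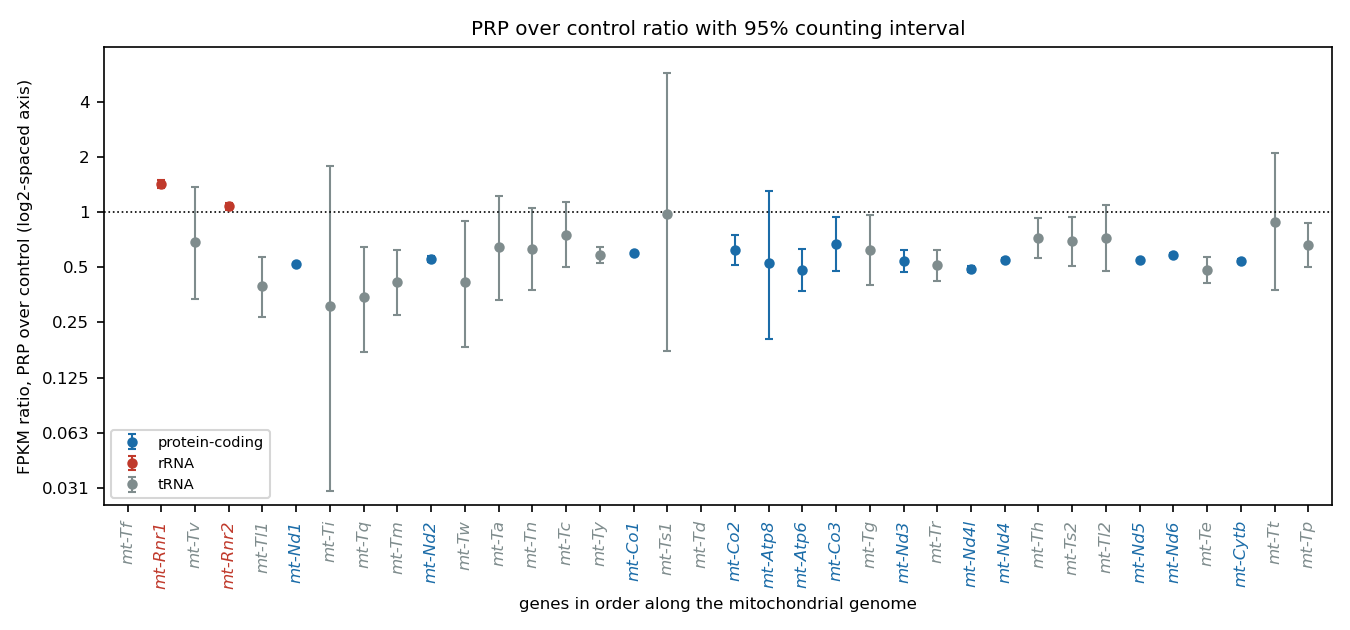
Ratio of PRP FPKM over control FPKM (log2-spaced axis) for mitochondrial genes in order along the genome, with 95% counting intervals as bars, blue for protein-coding genes, red for rRNA genes and grey for tRNA genes, and a dotted line at 1. The mRNA ratios lie between 0.484 and 0.672, both rRNA ratios lie above 1, and the tRNA intervals are wide, while mt-Tf and mt-Td have no ratio.

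Mitochondrial tRNAs carry amino acids to the mitochondrial ribosome and mark the sites at which the precursors are cut. The annotated tRNA genes are 59 to 75 bases long, so their rows rest on few reads (3399 in PRP and 5073 in control over all 21), and reads that run across an end of a tRNA into a neighbouring gene cannot be told apart from cut-out tRNA. Of the 20 tested, all 20 were lower in the PRP library, 13 by 1.5-fold or more and 7 by 2-fold or more, with a median log2 fold change of -0.65. Of all tested genes, 49.1% were lower, 4.57% by 1.5-fold or more and 0.828% by 2-fold or more. The interval lay below 1 for 11 tRNAs and spanned 1 for 9, while it lay below 1 for 26.1% of all tested genes with recovered reads. mt-Td was listed at 0 in both libraries. Like mt-Ts1, mt-Tg and mt-Tr, it lies wholly inside the span of copies on chromosome 1 and has no annotated copy of its own there. Whether these tRNA sequences also occur on chromosome 1 was not examined, so reads placed there cannot be told apart from low levels. mt-Tf had 0 reads in PRP and 5 in control, at or under the floor of 3 fragments in both libraries, so no ratio is given, although it counts among the 7.

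The 3 most abundant tRNA rows are given with their sequences, the anticodon in capitals. mt-Ty (tyrosine) lies at chrM:5260-5326 on the minus strand, mt-Te (glutamate) at chrM:14071-14139 on the minus strand and mt-Tr (arginine) at chrM:9808-9875 on the plus strand.
mt-Ty: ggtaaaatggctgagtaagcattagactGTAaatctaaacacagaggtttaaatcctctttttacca
mt-Te: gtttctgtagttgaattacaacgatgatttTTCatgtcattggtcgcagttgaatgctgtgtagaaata
mt-Tr: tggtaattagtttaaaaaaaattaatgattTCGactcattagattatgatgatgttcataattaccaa
mt-Ty stood at 498 FPKM in PRP and 848 in control, a ratio of 0.587 (0.531 to 0.649). It alone held 39.6% and 38.6% of the summed tRNA FPKM. mt-Te stood at 171 and 354 FPKM, a ratio of 0.484 (0.411 to 0.569). mt-Tr stood at 126 and 246 FPKM, a ratio of 0.513 (0.422 to 0.622). These ratios were close to those of the mRNAs.

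The largest differences among tRNAs were in mt-Tf, with a log2 fold change of -1.66 from the few reads given above, mt-Tq (glutamine) and mt-Tl1 (leucine). mt-Tq stood at 10.2 FPKM in PRP and 29.7 in control, a ratio of 0.343 (0.173 to 0.646). mt-Tl1, which directly follows mt-Rnr2 and precedes mt-Nd1, stood at 28.9 and 73.4 FPKM, a ratio of 0.394 (0.268 to 0.570). The smallest differences were in mt-Ts1 (serine), mt-Tt (threonine) and mt-Tc (cysteine). mt-Ts1 stood at 2.89 and 2.97 FPKM from 8 and 7 reads. mt-Tt stood at 9.67 and 10.9 FPKM, a ratio of 0.885 (0.375 to 2.10), and mt-Tc at 35.9 and 47.5 FPKM, a ratio of 0.755 (0.500 to 1.14). Each of these last intervals spanned both 1 and the median mRNA ratio, so at this depth these tRNAs could be told apart from neither. The other 11 tested tRNAs were all lower in the PRP library, and the interval of 5 of them spanned 1. Their ratios ran from 0.309 for mt-Ti to 0.726, with levels of 1.44 to 91.9 FPKM in the PRP library and 4.67 to 127 in the control library. The mt-Ti ratio rests on 4 and 11 reads and has an interval of 0.0300 to 1.80. Its PRP level was at or under the floor of 3 fragments, although mt-Ti counts among the 7 tRNAs lower by 2-fold or more.

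Some runs of adjacent tRNA genes allowed reads to be summed. The tRNAs for isoleucine, glutamine and methionine sit side by side between mt-Nd1 and mt-Nd2, with mt-Tq on the minus strand and the others on the plus strand, at chrM:3706-3774, chrM:3772-3842 and chrM:3845-3913. They are shown, with anticodons in capitals, because this run had the lowest ratio.
mt-Ti: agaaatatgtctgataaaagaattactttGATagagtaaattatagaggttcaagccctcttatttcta
mt-Tq: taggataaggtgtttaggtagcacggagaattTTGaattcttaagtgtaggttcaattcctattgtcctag
mt-Tm: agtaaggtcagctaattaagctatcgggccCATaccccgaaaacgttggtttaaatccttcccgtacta
This run had 109 reads in PRP and 238 in control, a ratio of 0.390 (0.277 to 0.541). The run of mt-Tw, mt-Ta, mt-Tn, mt-Tc and mt-Ty (tryptophan, alanine, asparagine, cysteine and tyrosine) between mt-Nd2 and mt-Co1 had 1550 and 2218 reads, a ratio of 0.595 (0.542 to 0.652), most of them on mt-Ty. The run of mt-Th, mt-Ts2 and mt-Tl2 (histidine, serine and leucine) between mt-Nd4 and mt-Nd5 had 495 and 589 reads, a ratio of 0.715 (0.601 to 0.850). The interval of the first run overlapped that of neither other run, although the gap to the tyrosine run was narrow. The order of the runs was seen in the data, and no replicate bears on it.

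By strand, the 12 tested tRNAs annotated on the plus strand had a median log2 fold change of -0.81 (-0.67 without mt-Tf), and the 8 on the minus strand one of -0.62. In summed reads per assigned read the plus-strand tRNAs had a ratio of 0.571 (0.513 to 0.635) and the minus-strand tRNAs one of 0.570 (0.528 to 0.615). The strands therefore could not be told apart at this depth. mt-Ty alone held 1338 of the 2236 minus-strand tRNA reads in PRP and 1939 of the 3339 in control. Whether the counting used the strand is not known here, so reads of the opposite strand in these rows cannot be told apart either.

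Nuclear genes of the same complexes lay closer to equal levels in both libraries. Of 76 tested nuclear subunits of complexes I to V, 46 were lower and 30 higher in the PRP library, and the median log2 fold change was -0.04. None differed by 1.5-fold or more in either direction. Of all tested genes, 49.1% were lower, 4.57% were lower by 1.5-fold or more and 6.15% were higher by 1.5-fold or more. The range of the nuclear subunits, from -0.54 to 0.43, overlapped that of the mitochondrial mRNAs only at the mt-Co3 row. With the reads of its copy on chromosome 1 added, mt-Co3 was at -0.86, outside this range. For complex I, 18 of 36 were lower, with a median of -0.01. Ndufa6 and Ndufa12, accessory subunits, were highest at 22.6 against 17.3 FPKM and 182 against 159 FPKM. Ndufb11 and Ndufb10, also accessory subunits, were lowest at 10.2 against 14.7 FPKM and 36.2 against 45.1 FPKM. Complex II, succinate dehydrogenase, has no mitochondrially encoded subunit, and 3 of its 4 genes were lower, with a median of -0.01. Its flavoprotein gene Sdha stood at 32.1 against 47.0 FPKM and Sdhc at 14.5 against 14.6, whereas Sdhb stood at 10.5 against 10.6 and Sdhd at 20.7 against 19.0.

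For complex III, 7 of 9 nuclear genes were lower, with a median of -0.09, where 49.1% of all tested genes were lower. The core protein genes Uqcrc2 and Uqcrc1 were lowest, at 9.63 against 11.7 FPKM and 21.4 against 25.4 FPKM. The small subunit genes Uqcr10 and Uqcrq were highest, at 21.6 against 15.7 FPKM and 25.3 against 25.2 FPKM. For complex IV, 9 of 11 were lower, with a median of -0.09, from Cox7a2 and Cox5a (12.6 against 16.3 and 5.90 against 6.72 FPKM) up to Cox6a1 and Cox7c (23.5 against 22.8 and 23.2 against 19.3 FPKM). For complex V, 9 of 16 were lower, with a median of -0.01. Its central stalk gene Atp5e and its alpha subunit gene Atp5a1 were lowest, at 4.71 against 6.61 FPKM and 87.8 against 105 FPKM. The beta subunit gene Atp5b and the delta subunit gene Atp5d were highest, at 186 against 175 FPKM and 6.43 against 5.56 FPKM.

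**Figure D4:**
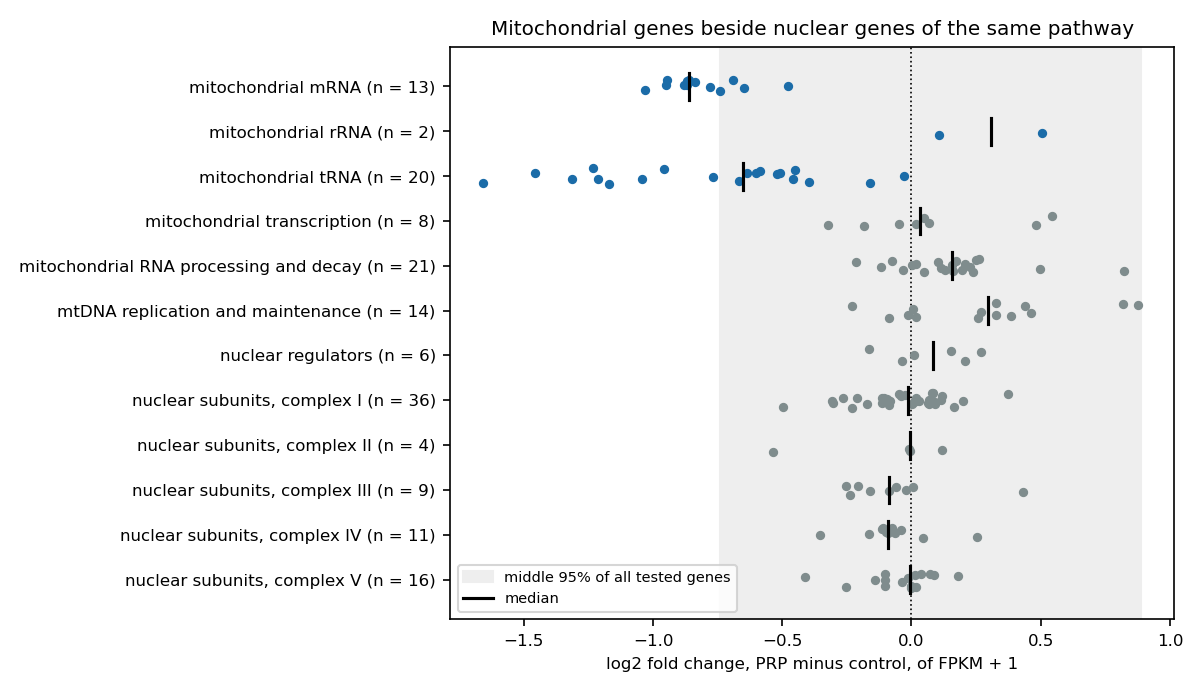
Log2 fold change (PRP minus control, of FPKM + 1) of each tested mitochondrial gene (blue) and of each tested nuclear gene of the same pathways (grey), with the median of each list as a black line and the middle 95% of all tested genes shaded, from -0.74 to 0.89. The mitochondrial mRNAs have a median of -0.86, at the lower edge of the shaded range or beyond it for most, whereas the nuclear subunits of each complex lie around 0.

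The nuclear genes that make and maintain mitochondrial RNA and DNA were more often higher than lower in the PRP library. Over 4 lists, 37 of 49 tested genes were higher and 12 lower, with a median log2 fold change of 0.15, where 50.9% of all tested genes were higher. By 1.5-fold or more in log2 fold change, 3 were higher, where 6.15% of all tested genes were. Mterf1a and Tefm, with ratios of 2.18 and 1.51, are not among the 3, since the added 1 understates changes at low FPKM. Among the transcription genes, 5 of 8 tested were higher, with a median of 0.03. The polymerase Polrmt stood at 3.58 against 3.37 FPKM and the packaging and initiation factor Tfam at 6.23 against 5.99 FPKM, with intervals of the ratio from 0.901 to 1.25 and from 0.917 to 1.18. The highest were Mterf1a, of the transcription termination factor family, at 1.38 against 0.634 FPKM, and the elongation factor Tefm at 5.08 against 3.36 FPKM. The lowest were the initiation factor Tfb2m at 2.94 against 3.93 FPKM and Mterf2 at 2.56 against 3.04 FPKM.

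Among genes of mitochondrial RNA processing and decay, 17 of 21 tested were higher, with a median of 0.16, where 50.9% of all tested genes were higher. The interval of the ratio lay above 1 for 9 of them, below 1 for 2 and across 1 for 10. Of all tested genes with recovered reads, 26.1% had an interval above 1. Trmt10c, a subunit of the mitochondrial ribonuclease P that cuts the 5' end of tRNAs, stood at 23.1 FPKM in PRP and 12.6 in control, a ratio of 1.83 (1.67 to 2.01). Pnpt1, the polynucleotide phosphorylase that degrades mitochondrial RNA, stood at 13.4 and 9.20 FPKM, a ratio of 1.46 (1.31 to 1.62). The lowest were Fastk, at 3.27 against 3.95 FPKM, and the helicase Dhx30, at 3.71 against 4.11 FPKM. Among genes of mitochondrial DNA replication and maintenance, 11 of 14 tested were higher, with a median of 0.30, beside 50.9% of all tested genes. The mitochondrial topoisomerase Top1mt stood at 13.6 and 6.97 FPKM, a ratio of 1.95 (1.68 to 2.28), and the pyrimidine nucleotide carrier Slc25a33 at 4.54 and 2.14 FPKM, a ratio of 2.12 (1.60 to 2.85). The lowest were Slc25a36, a carrier of the same kind, at 1.49 against 1.92 FPKM, and the primase Primpol, at 1.35 against 1.49 FPKM. Among nuclear regulators of mitochondrial genes, 4 of 6 tested were higher, with a median of 0.08, beside 50.9% of all tested genes. Gabpb1 and Yy1 were highest, at 2.07 against 1.55 FPKM and 18.5 against 15.9 FPKM, and Gabpa and Nrf1 lowest, at 12.6 against 14.2 FPKM and 2.14 against 2.22 FPKM.

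Marker levels of the cultures also differed between the libraries. All 5 FAP markers were lower in PRP (median log2 fold change -0.47), where 49.1% of all tested genes were lower. They ran from -0.13 for Dcn to -1.37 for Dpt. By 1.5-fold or more, 2 of the 5 were lower, against 4.57% of all tested genes. The adipocyte markers Adipoq and Plin1 stood at 5.49 against 5.22 FPKM and 1.73 against 2.10 FPKM, and Cidec and Lep were under 1 FPKM in both. Among macrophage and endothelial markers only Cd68, at 4.56 against 2.31 FPKM, and Kdr, at 4.23 against 1.5 FPKM, were tested, and the others had a mean FPKM under 1. The part of these differences in the mitochondrial values was not tested.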

How the data were processed

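RNA-seq of 2 cultures of primary mouse FAPs, 1 PRP and 1 control, was analysed, with groups taken from the sample titles. Per the labels and the study's methods, RNA was extracted with TRIzol, a stranded mRNA kit was used, reads were trimmed with fastp 0.23.4, aligned to mm10 with STAR 2.5.3a and counted with featureCounts. The authors deposited FPKM for 44291 genes. The annotation release, the strand setting, the treatment of multi-mapping reads and the step from counts to FPKM are not given in the sources used here, and aligned reads were not analysed here.

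With exon lengths of GENCODE M21 (GRCm38), 26406 of 28160 genes above 0 gave whole read numbers in both libraries within 0.001 reads (93.8%), all 36 mitochondrial genes among them. Even numbers were in excess (79.3% and 80.3% of genes with up to 8 reads), as when both mates are counted. Ratios therefore have exact Clopper-Pearson 95% intervals on read numbers divided by 2. A level was treated as at or under the floor at 3 fragments or fewer. The recovered reads served for depth, intervals and the addition of copies, and no count test was run, since 1 library per group allows none.

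Log2 fold changes used a pseudocount of 1, which understates the change of low genes, and a minimum mean FPKM of 1. Thresholds were 1.5-fold and 2-fold. Sequences were read from GENCODE M21 transcripts, copies were aligned with edlib, and windows of 100 bases were searched in all transcripts. An anticodon was marked where its 3 bases stood in a loop of 7 bases closed by at least 4 of 5 pairs. Every mRNA and rRNA is named, of tRNAs the 3 highest by mean FPKM and the 3 with the largest and the smallest fold change, and of each nuclear list the 2 highest and 2 lowest. Polrmt and Tfam and the tRNAs of 3 gene runs are named outside this rule, after their values were seen, and markers are named as listed. The members and lists were chosen with earlier results of these data known. Atp5o was left out because 2 rows carry its name. Alternatives were pseudocounts of 0.1 and 5, no filter or one at 5, rescaling to a common sum with and without mitochondrial and the 50 most abundant genes, centring on the median gene, other fold thresholds, other denominators, and members left out. Python 3.11.15, NumPy 2.4.6, pandas 2.3.3, SciPy 1.17.1 and matplotlib 3.10.9 were used, and the procedures were tested on simulated data.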

Additional observations from a re-analysis of the deposited data

How the results depend on the processing

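No paired analysis was possible because PRP and control are single libraries, and therefore no library could be left out and no spread between replicates is known. Of 153 alternative values, 136 stayed within counting error, within 1.5 times a count or within 0.1 of a rho, 17 moved and 0 changed direction. The median log2 fold change of the mRNAs (-0.86) moved to -0.82 with a pseudocount of 5 and to -0.81 as a mean, and its full range was -0.89 to -0.81. The 8 genes lower by 2-fold or more became 5 with a pseudocount of 5, 25 at 1.5-fold and 0 at 4-fold. The rho of mRNA fold change with gene start was -0.055 with a pseudocount of 0.1 and -0.31 with the copies added. The mitochondrial share of FPKM was 2.73% in PRP and 4.86% in control without the 50 most abundant nuclear genes, 3.53% and 6.14% with the copies on chromosome 1 added, and 0.594% and 1.04% as a share of assigned reads. With the copies added, complex I held 39.1% and 41.7% of mRNA FPKM and complex IV 37.4% and 35.5%, and the read ratio of complex V moved from 0.488 to 0.613. mt-Rnr2 stayed positive, at 0.07 to 0.11 on the log2 scale, and mt-Rnr1 at 0.47 to 0.51. The median of the transcription genes was 0.00058 at a mean FPKM of at least 5. At that filter the plus-strand tRNAs had a median of -0.59 and the minus-strand tRNAs one of -0.64. With a pseudocount of 5 these medians were -0.55 and -0.56. In these settings the plus-strand median was thus no longer the lower one, although each value stayed within counting error. With single reads as the counting unit, 13 mRNA intervals in place of 12 lay below 1. Read numbers limit the tRNA rows and mt-Atp8, and identity with chromosome 1 limits each row of the copied stretch.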

Other observations

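A second block of copies lies on chromosome 2, where Gm13339, Gm13340 and Gm13341 match parts of mt-Nd2, mt-Co1 and mt-Co2 with identities of 96.7%, 97.6% and 95.9%. Gm13340 stood at 8.21 FPKM in PRP and 14.0 in control, a ratio of 0.587 (0.498 to 0.690). Gm13341 stood at 17.1 and 30.1 FPKM, a ratio of 0.567 (0.478 to 0.672). Gm13339 stood at 2.05 and 2.53 FPKM, a ratio of 0.812 (0.425 to 1.55). The Gm13341 row was higher than the mt-Co2 row in both libraries, but the mt-Co2 row alone cannot be read as the level of that gene. With the reads of Gm28661, its copy on chromosome 1, added, mt-Co2 stood at 2374 FPKM in PRP and 3919 in control, far above Gm13341.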
